A study of Drosophila melanogaster with 8 samples.

Results

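The odorant-binding protein (Obp) genes of Drosophila melanogaster were taken as every symbol in the count files that begins with Obp and a number. This rule found 51 genes among the 16727 symbols listed, and all 51 matched a gene of the dm6 annotation. Their levels were measured by RNA-seq of adult heads in 4 libraries labelled Top3b26 and 4 labelled w1118, numbered as replicates 1 to 4 in each genotype. Top3b26 is an allele of the topoisomerase gene Top3beta made by remobilizing a P element. The w1118 flies are the control strain in whose background the allele was made, and both groups thus carry the white eye colour mutation. Flies of both groups were 1 to 2 weeks old and were kept at 25 °C and 60% humidity with 12 h of light and 12 h of dark. Heads were collected by freezing and sieving and total RNA was extracted from pooled heads. The labels give no sex for the flies and do not say whether replicates came from separate cultures, so the p-values below measure only the spread between these samples, which may be technical.

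Odorant-binding proteins are small soluble proteins that support cells secrete into the fluid bathing the sensory hairs of the antenna, the maxillary palp and the taste organs. They bind small hydrophobic molecules, and some help to carry an odour or a pheromone to its receptor or to clear it. Many genes of the family are expressed outside the antenna, in taste hairs, glia, fat body or the male reproductive tract. Most lie in clusters of neighbouring paralogs.

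The targeted gene, Top3beta (X, 6284138 to 6287990 in dm6), had 214 to 534 counts in the libraries labelled Top3b26 and 134 to 215 in those labelled w1118. Its log2 fold change was 0.90 ± 0.24 (SE, edgeR adjusted p = 0.16). It was 1.07 within replicates 1 and 2 (edgeR adjusted p = 3.7e-05) and 0.64 within replicates 3 and 4 (edgeR adjusted p = 0.0051). The libraries labelled mutant thus held a higher level of the gene rather than a lower one. What the allele leaves of the transcript is not given in the sources used here. The labels are therefore not checked by this gene, and every direction below rests on them. Top3b26 and w1118 stand for the libraries so labelled. Reads on genes totalled 4816757 to 6685891 in Top3b26 and 3301976 to 7591510 in w1118. Levels are given as CPM, the count of a gene scaled to its library's total, and a floor of 3 counts was 0.395 to 0.909 CPM, which covers counting error only. A header line opens the count files of replicates 1 and 2 in each genotype but not the files of replicates 3 and 4, and the libraries of each set resembled one another across genotypes. Values within each set are therefore given beside the pooled ones. Top3b26 replicates 1 and 2 stood apart in the photoreceptor gene ninaE, at 464 and 488 CPM against 11203 and 14045 CPM in Top3b26 replicates 3 and 4 and 14717 to 23652 CPM in w1118.

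Odorant-binding protein transcripts made up 0.203% to 0.307% of the counts in Top3b26 and 0.215% to 0.257% in w1118. The summed level was 3070, 2677, 2029 and 2103 CPM in Top3b26 replicates 1 to 4, against 2344, 2345, 2567 and 2153 CPM in w1118. The means of 2470 ± 494 and 2352 ± 169 CPM (SD, n = 4 each) differed by less than the spread between libraries. The family divided into 24 genes that passed edgeR's filter on low counts, 19 that were counted but did not pass, and 8 at 0 in every library. The 3 genes with the most reads held 54.2% of the 113546 counts of the family, and the first 10 held 93.4%.

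Levels of different genes were compared as CPM per kilobase of exon, over all 8 libraries. Obp56e came first at 657 ± 210 (SD, n = 8), followed by Obp56d at 528 ± 57.3 and Obp19d at 432 ± 151. Obp56d is known from the antenna and the labellum, the taste organ at the tip of the proboscis, and Obp19d from both smell and taste organs. These genes lay at percentiles 99.7, 99.5 and 99.3 of the 16508 genes with a known exon length.

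**Figure D1:**
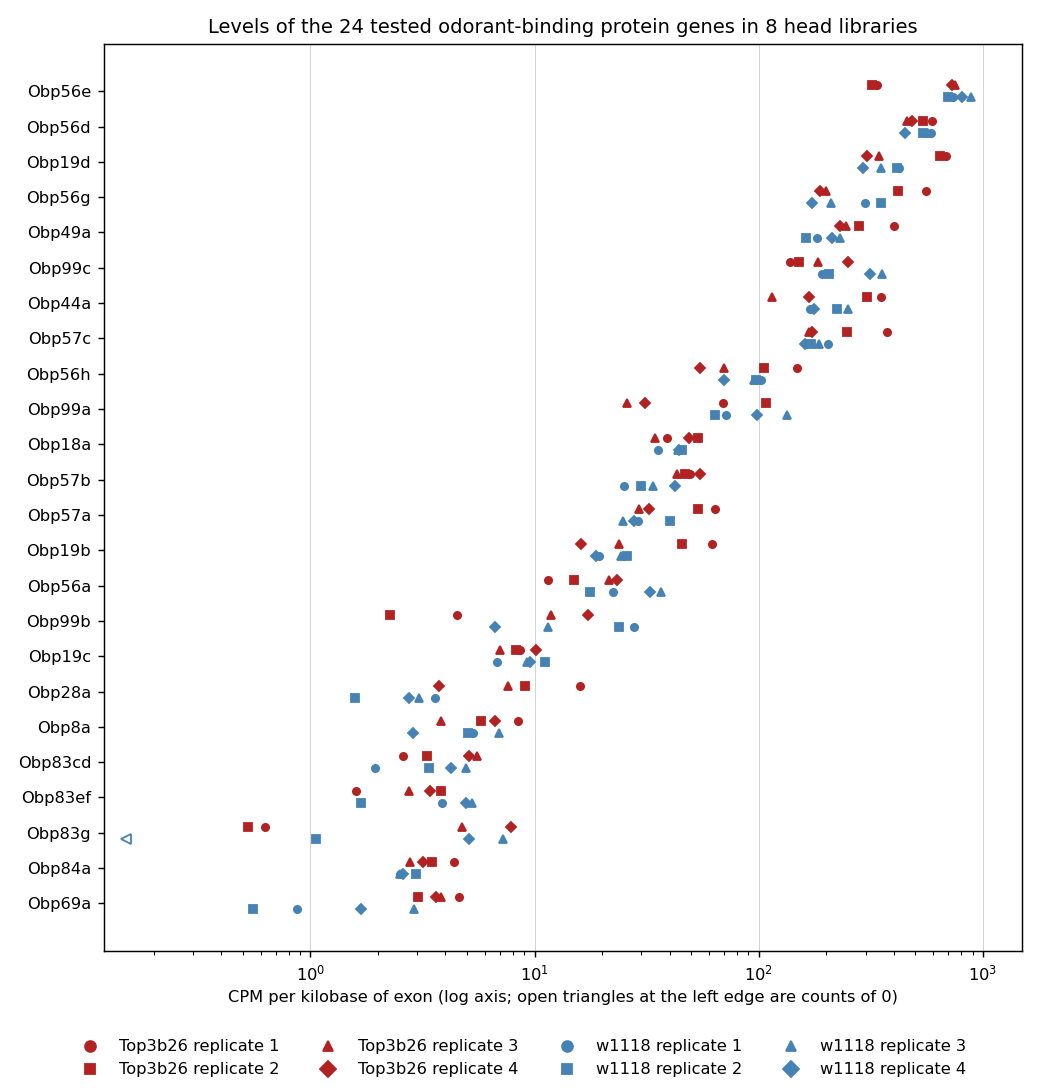
Level of each tested odorant-binding protein gene in each library, as CPM per kilobase of exon on a log axis, with Top3b26 above w1118 in every row and 1 marker per library. The genes run from Obp56e, at 322 to 883, down to Obp69a, at 0.555 to 4.60, and neighbouring genes overlap except at the step between Obp57c and Obp56h.

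The next 5 genes lay close together. Obp56g, which encodes a protein of the seminal fluid, averaged 299 ± 136 CPM per kilobase, and Obp49a, a protein of taste hairs that takes part in the suppression of sweet taste by bitter compounds, averaged 243 ± 73.3 (SD, n = 8). Obp99c stood at 223 ± 76.9 and the glial gene Obp44a at 220 ± 79.1. Obp57c, which is expressed around taste hairs, stood at 211 ± 71.7. Obp56h, a gene with an effect on mating behaviour, averaged 92.9 ± 28.9 and Obp99a 75.2 ± 37.0. Of the 23 pairs of neighbours in the order of the tested genes, 22 overlapped in their ranges over libraries. The exception was Obp57c, whose lowest library (161) lay above the highest library of Obp56h (148), so the finer order within these 10 genes is not resolved.

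The first gene depended on the library. Obp19d led in Top3b26 replicates 1 and 2, at 682 and 644 CPM per kilobase. Obp56e led in the other 6, at 751 and 725 in Top3b26 replicates 3 and 4 and 737, 695, 883 and 804 in w1118 replicates 1 to 4. The membership of the leading group varied less, since each library shared 9 or 10 of its first 10 genes with the order over all libraries. CPM without the division by length gave the same 10 genes.

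Odorant-binding protein transcripts are short, with a median exon length of 645 bases (398 to 1648) against 1492 over all annotated genes in the files. The tested members had a median of 628 bases, against 2138 for all 9633 tested genes. Their median percentile of level per kilobase was 89.3. Short transcripts give fewer reads per molecule, so the filter on counts asks more of these genes than of long ones.

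Below the first 10, Obp18a averaged 43.1 ± 6.50 CPM per kilobase, and Obp57b and Obp57a, neighbours of Obp57c, averaged 40.7 ± 10.2 and 37.6 ± 14 (SD, n = 8). Obp19b, which has a part in the taste of amino acids, averaged 29.5 ± 16 and Obp56a 22.6 ± 8.53. Obp99b, a sex-dependent gene of the head fat body, averaged 13.2 ± 9.15. The remaining 8 tested genes, Obp19c, Obp28a, Obp8a, Obp83cd, Obp83ef, Obp83g, Obp84a and Obp69a, averaged 2.64 to 8.86. The genes that passed the filter thus covered levels from a few reads per library to 4744.

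The genes best known from the antenna were among the lowest. Obp83a and Obp83b (OS-F and OS-E), abundant proteins of the fluid in antennal hairs, did not pass the filter. Obp83a had 13, 3, 2 and 2 reads in Top3b26 replicates 1 to 4 and 10, 1, 2 and 2 reads in w1118. Obp83b had 12, 1, 2 and 1 reads in Top3b26 and 5, 2, 2 and 1 reads in w1118. Both genes were thus at 1 to 3 reads in replicates 2 to 4 and higher in replicate 1, in each genotype. Obp28a, another abundant antennal protein, had 51, 35, 21 and 14 reads in Top3b26 and 13, 3, 11 and 12 reads in w1118. Obp59a, which takes part in the sensing of humidity, had 2 reads in all, and its locus overlaps a gene on the other strand.

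Of the 7 other soluble antennal proteins listed, a10, a5, Os-C and lush were also low, while Est-6, with 8347 counts over the 8 libraries, Phk-3 with 588 and antdh with 352 were higher. The gene a10 had 15 reads in Top3b26 replicate 1, 6 in w1118 replicate 1 and 0 in the other 6 libraries. The gene a5 had 4 reads in Top3b26 replicate 1 and 0 elsewhere, and Os-C had 5, 0, 0 and 1 in Top3b26 and 3, 0, 0 and 1 in w1118. The pheromone-binding gene lush, an odorant-binding protein listed under another name and so outside the rule, had 2, 10, 7 and 12 reads in Top3b26 and 3, 4, 12 and 16 in w1118. Unlike a10, it was lowest in replicate 1. Orco, the receptor subunit shared by most olfactory neurons, had 40, 34, 15 and 18 reads in Top3b26 and 33, 10, 12 and 14 in w1118.

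**Figure D2:**
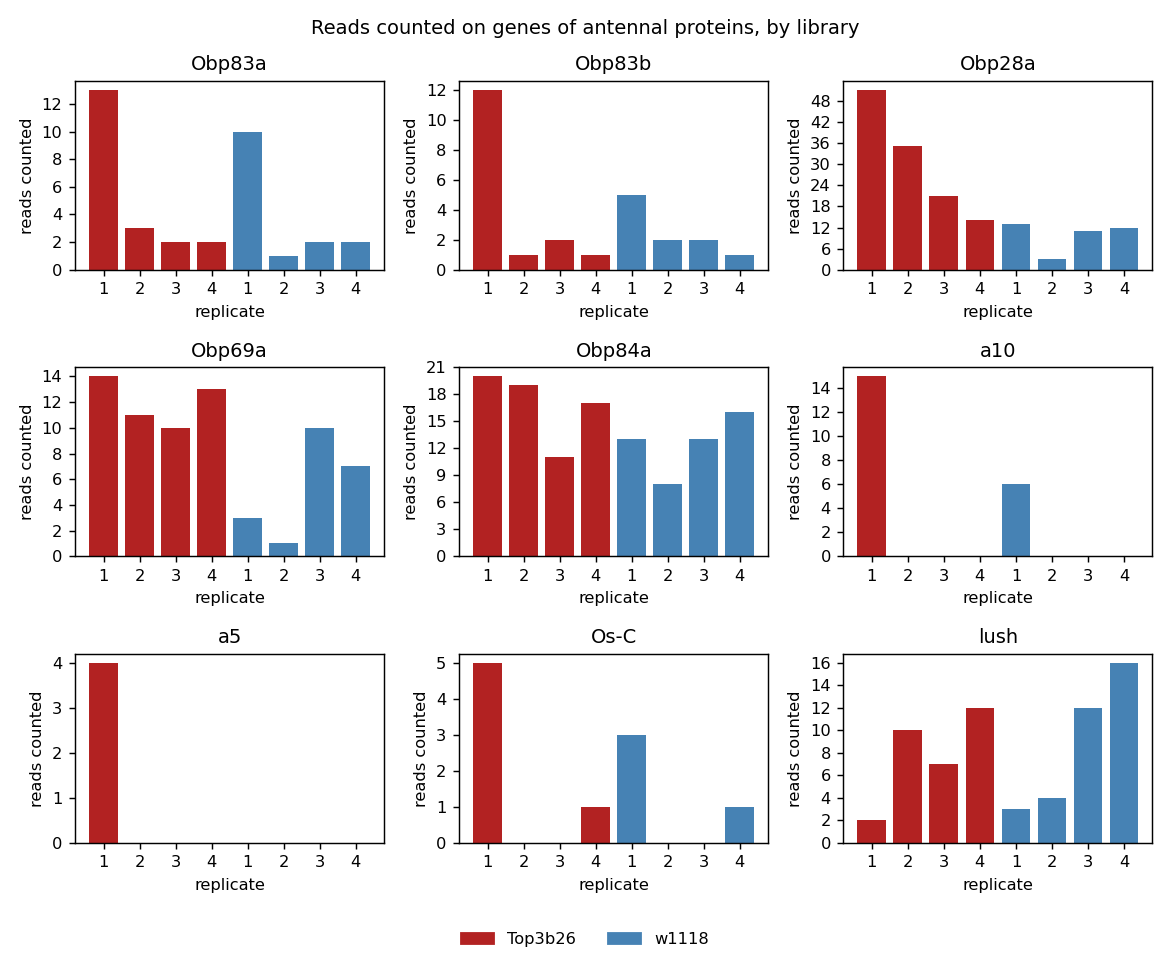
Reads counted on 9 genes of antennal proteins in each library, Top3b26 left of w1118, with bars from 0 and a separate scale per gene. Every gene shown except lush is highest in replicate 1 of Top3b26, by 1 read for Obp69a (14 against 13) and Obp84a (20 against 19). The gene a10 has 15 and 6 reads in the libraries of replicate 1 and 0 in the others.

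The 16 olfactory neuron markers summed to 43.0 to 58.5 CPM in Top3b26 and 34.9 to 45.6 CPM in w1118, most of it from Or43b with 1397 of 2190 counts, while Or47b, Or83c and Or85a were at 0 in every library. The 9 markers of taste organs summed to 14.3 to 20.3 CPM in Top3b26 and 14.1 to 26.0 CPM in w1118, with Gr64e at 0 in every library. The 15 genes of the male accessory gland summed to 2.69 to 4.98 CPM in Top3b26 and 3.02 to 8.18 CPM in w1118. The seminal fluid gene Obp56g was present at 92.6 to 276 CPM in Top3b26 and 85.8 to 174 CPM in w1118. Of the accessory gland genes, Acp95EF had 105 reads in all, and Acp36DE had 0, 10, 1 and 0 reads in Top3b26 and 27, 20, 3 and 3 in w1118. Obp22a and Obp51a, the other seminal fluid members, had 13 and 2 reads in all.

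By chromosome arm, 29 of the 51 genes lie on 2R, 12 on 3R, 6 on X, and 2 each on 2L and 3L. With a gap of at most 50 kb between neighbours, 36 members form 9 clusters and 15 stand outside them. Neighbours differed widely in level. In the cluster of Obp56a to Obp56f (2R, 19697723 to 19713976), Obp56e and Obp56d stood at 657 and 528 CPM per kilobase, Obp56a at 22.6, and Obp56b, Obp56c and Obp56f at 0.0348, 0.781 and 0.654. In the Obp19 cluster (X, 20415744 to 20420979), Obp19d stood at 432, Obp19b at 29.5, Obp19c at 8.86 and Obp19a at 0.647.

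The cluster of Obp57a to Obp57e (2R, 20503584 to 20550117) held Obp57c at 211 CPM per kilobase and Obp57b and Obp57a at 40.7 and 37.6, all in a row on the plus strand. Obp57e, a gene of taste hairs linked to the choice of egg-laying sites, had 13 reads in Top3b26 and 5 in w1118, and Obp57d had 0. The clusters of Obp50a to Obp50e and of Obp58b, Obp58c, Obp58d and Obp59a held no gene that passed the filter. A count of 0 over the 47102757 counts of all libraries allows a level of up to 0.0637 CPM where reads can be assigned. The genes at 0 were Obp46a, Obp50b, Obp50c, Obp50d, Obp56i, Obp57d, Obp58c and Obp58d. Of these, Obp50b and Obp50c share 1821 bases on the same strand, and Obp57d shares 1750 with Cpr57A, also on the same strand. Reads there may have been given to neither gene, so the bound does not cover Obp50b, Obp50c and Obp57d.

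The subfamily called Plus-C, whose members have additional conserved cysteines, had few reads apart from Obp49a. Of its 13 members, Obp49a alone passed the filter, 6 were at 0 and the other 12 summed to 40 reads, with at most 16 for any one. Obp49a had 5303 reads in Top3b26 and 3704 in w1118. Some of the others overlap other genes, so low counts there need not mean low levels. Obp85a shares 776 bases with CG45263 and Obp50b 1821 with Obp50c, on the same strand. Obp93a shares 652 bases with CG5793 and Obp47b 741 with CG7741, on the other strand.

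The 19 genes counted below the filter had 1 to 35 reads each over the 8 libraries and together held 0.203% of the family's counts. They were Obp19a, Obp22a, Obp47a, Obp47b, Obp50a, Obp50e, Obp51a, Obp56b, Obp56c, Obp56f, Obp57e, Obp58b, Obp59a, Obp73a, Obp83a, Obp83b, Obp85a, Obp93a and Obp99d. No library had more than 13 reads of any of them. The CPM values of the genotypes did not overlap for 1 of them, Obp47b, higher in Top3b26, beside 1.55% of all genes counted below the filter, and for 0 lower in Top3b26, beside 1.34%. It had 1, 3, 1 and 2 reads in Top3b26 and 1, 0, 1 and 0 in w1118 (exact two-sided permutation p = 0.0286, the smallest that 4 against 4 allow, n = 4 each). In replicates 1 and 3 the read count was 1 in each genotype, and the order of the CPM values there comes from the library totals alone. All values of Obp47b lay at or under the floor of 3 counts, so no fold is given, and its locus shares 741 bases with CG7741 on the other strand.

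Several loci share bases with other genes, and the strand setting of the counter is not given in the sources used here. Obp56e (2R, 19712345 to 19712932, plus strand) shares 505 bases of its locus with the antisense gene CR44509 (2R, 19712095 to 19712849, minus strand). CR44509 had 0.816 to 0.917 times the count of Obp56e in Top3b26 and 0.657 to 0.949 times in w1118, so its level followed that of Obp56e. Without the strand, reads of these genes cannot be told apart, and the first place of Obp56e in the order is uncertain for that reason. Obp44a shares 205 bases with Pabp2 and Obp99c 23 bases with Gycalpha99B, both on the other strand. Obp69a lies within CG32104, and Obp84a shares 1026 bases with CG10050, each on the other strand. Obp83cd and Obp83ef share 92 bases on opposite strands.

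Between the genotypes, no odorant-binding protein gene passed an adjusted p of 0.05 with a fold change of at least 1.5 in the 8 libraries together. That is 0 of 24 called higher and 0 of 24 called lower in Top3b26 by edgeR, beside 0.249% and 0.664% of all 9633 tested genes. At an unadjusted p of at most 0.05, edgeR had 2 higher and 1 lower, and DESeq2 and limma voom each had 2 higher and 2 lower and called 0. The median log2 fold change was 0.04 over the 24 genes, 13 of them positive, and -0.01 over all tested genes. Scaling to the library total alone moves the median of all genes to 0.12 and that of the 24 genes to 0.19, again with 0 called. In whole heads, fewer cells of a type and less RNA per cell cannot be told apart.

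The antennal genes Obp28a and Obp69a had the largest differences upward. Obp28a (2L, 7496791 to 7497365, minus strand) had 9.16, 5.23, 4.36 and 2.15 CPM in Top3b26 replicates 1 to 4 and 2.06, 0.909, 1.75 and 1.58 CPM in w1118. Every Top3b26 library thus lay above every w1118 library. Its log2 fold change was 1.5 ± 0.42 (SE, edgeR adjusted p = 0.19), and DESeq2 gave 1.53 (adjusted p = 0.063). Within replicates 1 and 2 it was 1.97 (edgeR adjusted p = 0.0076), and 1.55 there without Top3b26 replicate 1. Within replicates 3 and 4 it was 0.80 (edgeR adjusted p = 0.28). In a fit with a term for the set of replicates it was 1.40 and was called (edgeR adjusted p = 0.041), 1 of 24 genes called higher there beside 1.41% of all genes. It stayed uncalled with the replicate number as a block, at 1.44 (edgeR adjusted p = 0.065).

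Obp69a, an antennal protein with a role in the response to the pheromone cVA, had 2.51, 1.65, 2.08 and 1.99 CPM in Top3b26 and 0.475, 0.303, 1.59 and 0.922 CPM in w1118. The libraries did not overlap, although w1118 replicate 3 came near the lowest of Top3b26. The log2 fold change of 1.06 (SE 0.46) was not called (edgeR adjusted p = 0.39). It was 0.61 within replicates 3 and 4 (edgeR adjusted p = 0.45), and the gene did not pass the filter within replicates 1 and 2. Obp84a, also antennal, had 3.59, 2.84, 2.28 and 2.61 CPM in Top3b26 and 2.06, 2.42, 2.06 and 2.11 CPM in w1118, which overlapped. Of the 7 antennal members, 3 were tested and 0 were called, beside 0.249% of all tested genes called higher and 0.664% called lower. With so few reads in w1118, Obp28a and Obp69a could pass the filter through their Top3b26 libraries. The signs of the tested antennal members are therefore not read as a result.

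The taste genes Obp49a and Obp57b also separated the libraries. Obp49a (2R, 12690059 to 12690955, minus strand) had 312, 219, 192 and 180 CPM in Top3b26 and 142, 127, 179 and 166 CPM in w1118, with Top3b26 replicate 4 and w1118 replicate 3 next to each other at the boundary. Its log2 fold change was 0.40 ± 0.19 (SE, edgeR adjusted p = 0.43). Obp57b had 40.8, 38.4, 35.7 and 45.2 CPM in Top3b26 and 20.7, 24.5, 27.8 and 34.8 CPM in w1118, with a log2 fold change of 0.43 ± 0.20 (SE, edgeR adjusted p = 0.44). That of Obp57b was 0.68 within replicates 1 and 2 (edgeR adjusted p = 0.014) and 0.27 within replicates 3 and 4 (edgeR adjusted p = 0.34).

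Separation was thus seen upward for 4 of 24 genes, beside 7.64% of all tested genes, and downward for 0 of 24, beside 2.58%. It depended on the scaling: with TMM-scaled CPM only Obp28a was separated upward, beside 3.67% of all genes, and 0 downward, beside 4.66%. Of the 7 taste members, 5 were tested, all 5 had positive log2 fold changes (median 0.42) and 0 were called.

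Among the genes with lower levels in Top3b26, Obp99c and Obp56a were called once the replicate number entered the fit as a block. Obp99c (3R, 29685736 to 29689311, minus strand) had 92.5, 101, 123 and 168 CPM in Top3b26 and 128, 137, 238 and 209 CPM in w1118. Each Top3b26 library lay below the w1118 library of its number, but the ranges of the genotypes overlapped, and replicates 3 and 4 were higher than replicates 1 and 2 in each. The log2 fold change was -0.69 ± 0.30 (SE, edgeR adjusted p = 0.40) without the block and -0.67 ± 0.12 (SE, edgeR adjusted p = 0.019) with it.

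Obp56a (2R, 19697723 to 19698508, plus strand) had 6.28, 8.23, 11.8 and 12.7 CPM in Top3b26 and 12.2, 9.69, 20 and 18 CPM in w1118. It too was lower in Top3b26 at each replicate number. Its log2 fold change was -0.76 ± 0.34 (SE, edgeR adjusted p = 0.41) without the block and -0.75 ± 0.17 (SE, edgeR adjusted p = 0.043) with it. The block thus called 2 of 24 genes lower and 0 higher, beside 2.91% and 0.914% of all genes. With the term for the set, Obp56a, Obp56e and Obp99c were called lower, 3 of 24 beside 4.18%.

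These calls moved with an allowance for transcript length. When the trend of level on exon length was removed in each library and the block kept, Obp56a stood at -0.55 (edgeR adjusted p = 0.15) and was not called. Obp99c stood at -0.51 (edgeR adjusted p = 0.043), under the fold minimum. Obp57b became the 1 gene of 24 called, at 0.59 (edgeR adjusted p = 0.046). Over all 9633 tested genes that fit called 91 higher and 207 lower.

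Within replicates 1 and 2 alone, 6 of 22 tested genes were higher in Top3b26, beside 3.5% of all genes, and 3 of 22 were lower, beside 7.03%. The genes called higher were Obp19b, Obp28a, Obp44a, Obp49a, Obp57a and Obp57b, of which 4 are in the taste group, drawn up after the values had been seen. Those called lower were Obp56e, Obp99b and Obp99c. Without 1 library of the set, the log2 fold change of Obp57a ranged from 0.41 to 0.86 and that of Obp57b from 0.55 to 0.78. The 2 markers of taste organs tested in this set, ppk28 and ppk29, stood at -0.36 and -0.55 and were not called. Without Top3b26 replicate 1, 3 genes were called in this set, and DESeq2 called 5. Obp19b, Obp56e and Obp99b were called in each of the 4 fits that left out 1 library. The median log2 fold change of the 22 genes was 0.26, against 0.00 over all genes.

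Within replicates 3 and 4 alone, 0 of 24 genes were called higher in Top3b26 by edgeR, beside 1.52% of all genes, with 0 at an unadjusted p of at most 0.05 and 0 called by DESeq2. Lower were Obp44a, Obp56a, Obp99a and Obp99c, 4 of 24 beside 5.95%, and DESeq2 called 2. The median was -0.12, against 0.01 over all genes. With the exon length offset it was 0.06, with 14 of 24 positive, and Obp99b was called higher and Obp99a lower, beside 182 and 492 of all 9656 genes. Without w1118 replicate 3 it was 0.01, and Obp99b was called higher at 1.03 (edgeR adjusted p = 0.019). Obp99c was the gene called lower in both sets, at -0.60 in replicates 1 and 2 (edgeR adjusted p = 0.0047) and -0.72 in replicates 3 and 4 (adjusted p = 0.0038). Its estimate fell under the fold minimum without Top3b26 replicate 1 (-0.53), w1118 replicate 2 (-0.56) or Top3b26 replicate 3 (-0.51). In replicates 3 and 4, Obp56a and Obp99a were called in each of the 4 fits that left out 1 library. Of the 22 genes tested in both sets, 7 were positive in both, 6 negative in both, 8 positive in replicates 1 and 2 and negative in replicates 3 and 4, and 1 the reverse. Those positive in both include Obp49a, at 0.00 in replicates 3 and 4.

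**Figure D3:**
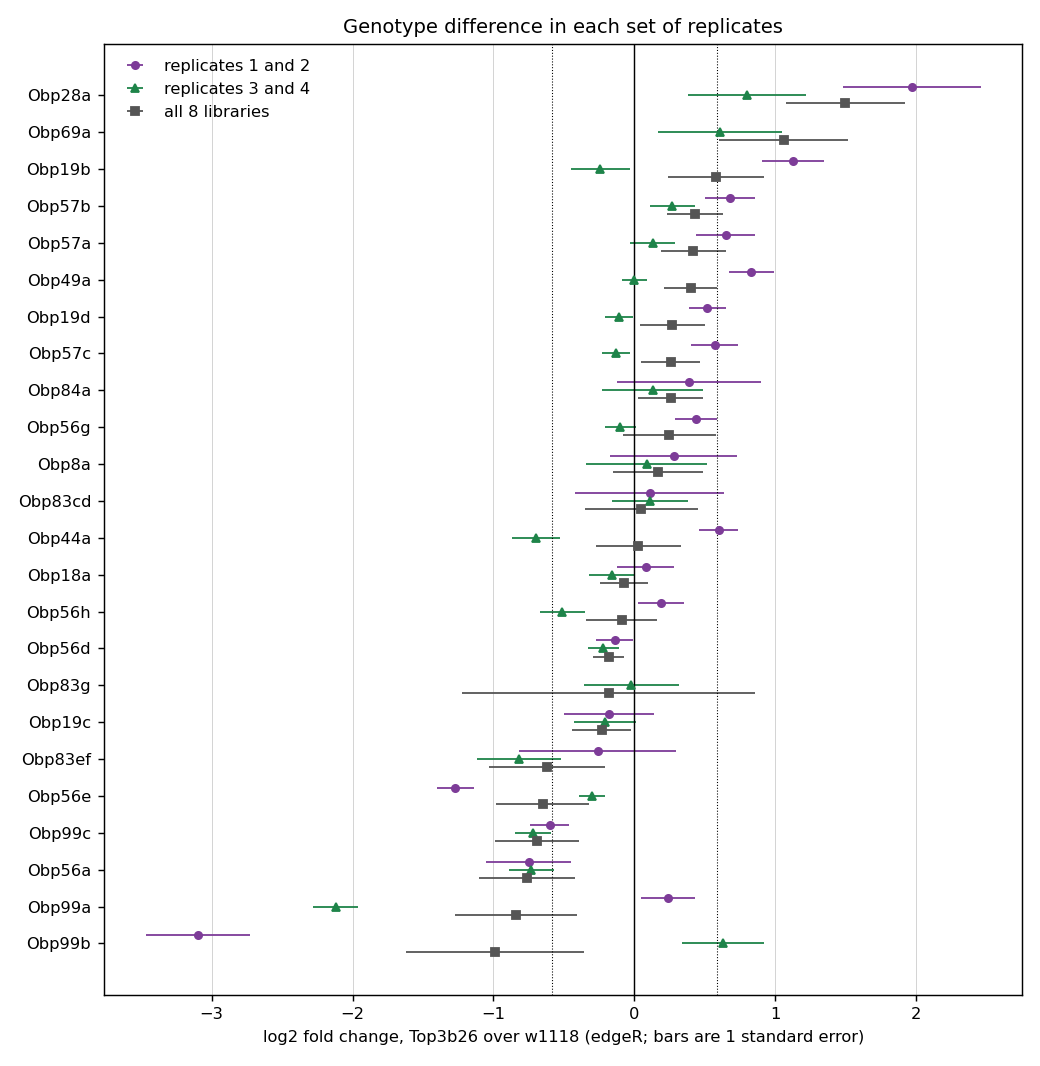
Log2 fold change of Top3b26 over w1118 for each tested gene in replicates 1 and 2, in replicates 3 and 4 and in all 8 libraries, with bars of 1 SE from edgeR and dotted lines at a fold change of 1.5. The estimates of Obp99b, Obp99a, Obp44a and Obp19b lie on opposite sides of 0 in the sets, and those of Obp56a and Obp99c lie together between -0.60 and -0.75.

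The genotype difference itself differed between the sets for 7 of 24 genes in edgeR's interaction test (adjusted p at most 0.05), beside 7.31% of all tested genes. The largest such difference was that of Obp99b (3R, 29716254 to 29716896, minus strand), a gene that falls outside the rule for named genes and was chosen after its values were seen. It had 2.69, 1.35, 7.06 and 10.3 CPM in Top3b26 replicates 1 to 4 and 16.5, 14.2, 6.83 and 3.95 CPM in w1118. Its lowest libraries were thus Top3b26 replicates 1 and 2 and its highest w1118 replicates 1 and 2. The log2 fold change was -3.10 in replicates 1 and 2 (SE 0.37) and 0.63 in replicates 3 and 4 (SE 0.29), and the sets differed by 3.70 (edgeR adjusted p = 6.1e-05).

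Obp99a, its neighbour in the cluster on 3R, went the other way. It had 42.4, 65.8, 15.8 and 18.9 CPM in Top3b26 and 43.5, 39.1, 81.5 and 60.2 CPM in w1118. The libraries overlapped in replicates 1 and 2, while in replicates 3 and 4 both Top3b26 libraries lay far below both w1118 libraries. The log2 fold change was 0.24 in replicates 1 and 2 (SE 0.19, edgeR adjusted p = 0.46) and -2.12 in replicates 3 and 4 (SE 0.16, edgeR adjusted p = 8e-06), a 4.34-fold lower level in Top3b26. The sets differed by -2.39 (edgeR adjusted p = 2.1e-05).

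Obp44a, the glial member, was called in both sets in opposite directions. It had 379, 327, 123 and 180 CPM in Top3b26 and 182, 240, 270 and 190 CPM in w1118, so that Top3b26 held its highest and its lowest libraries. The log2 fold change was 0.60 in replicates 1 and 2 (edgeR adjusted p = 0.0061) and -0.70 in replicates 3 and 4 (adjusted p = 0.023). Over all libraries it was 0.03 ± 0.30 (SE, edgeR adjusted p = 0.98), and its sign changed with the fit. The call in replicates 1 and 2 was lost without Top3b26 replicate 1 (0.50) or w1118 replicate 1 (0.42), and that in replicates 3 and 4 without Top3b26 replicate 3 (-0.45) or w1118 replicate 3 (-0.45). Of the 5 glial markers, 0 were called pooled. In replicates 1 and 2, 2 were called higher, beside 3.5% of all genes, and in replicates 3 and 4, 0 were, beside 1.52%. Their sum was 855 to 1137 CPM in Top3b26 and 681 to 944 CPM in w1118, and its part in Obp44a was not tested.

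**Figure D4:**
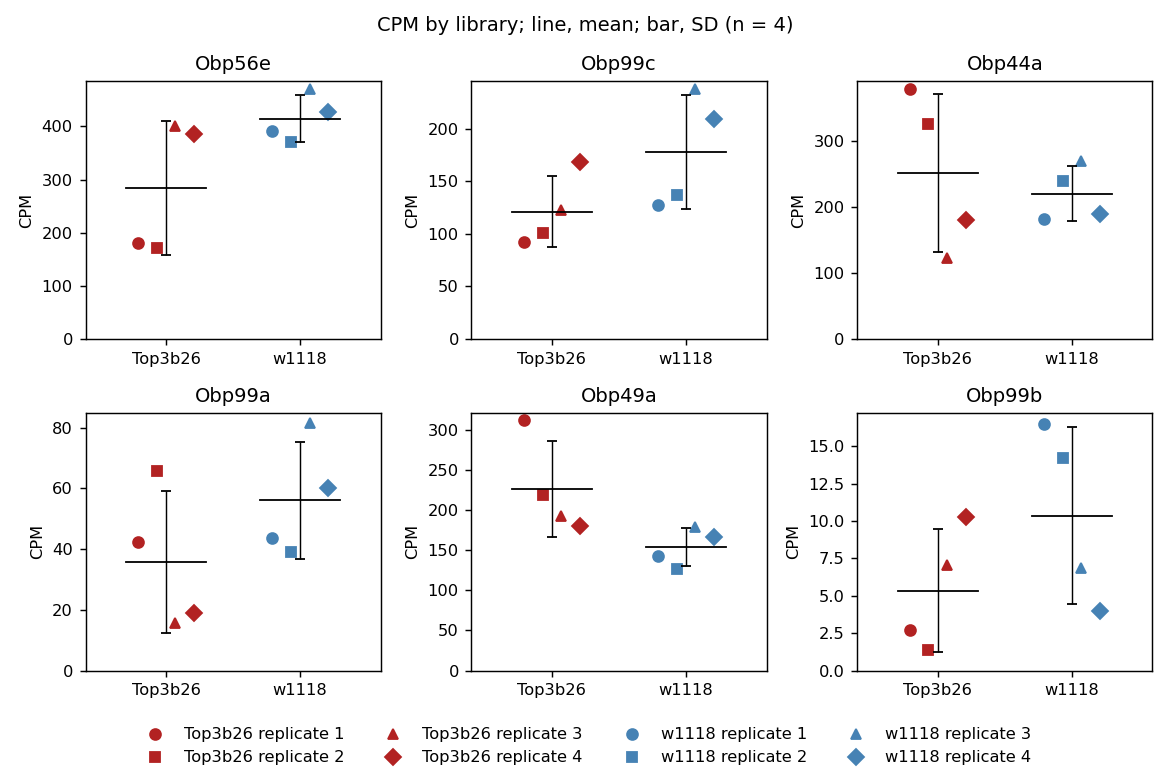
CPM of 6 genes in each library, Top3b26 left of w1118, with the mean as a line and the SD as a bar (n = 4 each) and axes from 0. Top3b26 replicates 1 and 2 lie apart from replicates 3 and 4 for Obp56e, Obp44a, Obp99a and Obp99b, while Obp99c is lower in Top3b26 at each replicate number.

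Obp56e had 180, 171, 400 and 386 CPM in Top3b26 and 392, 370, 470 and 428 CPM in w1118. Top3b26 replicates 1 and 2 were far below all other libraries, and replicates 3 and 4 lay within the range of w1118. The log2 fold change was -1.27 in replicates 1 and 2 (SE 0.13, edgeR adjusted p = 2.4e-07) and -0.30 in replicates 3 and 4 (SE 0.09, edgeR adjusted p = 0.053), and the sets differed by 0.94 (adjusted p = 0.00041). Its antisense neighbour CR44509 had -1.06 and -0.32 in the same sets.

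For Obp19d, Obp49a and Obp19b the log2 fold change was positive in replicates 1 and 2 and 0.00 or negative in replicates 3 and 4. Obp19d (X, 20419613 to 20420979, plus strand) had 751, 710, 377 and 333 CPM in Top3b26 and 466, 456, 388 and 322 CPM in w1118, with log2 fold changes of 0.52 and -0.11 in the sets, neither of them past the fold minimum. Obp49a had 0.83 and 0.00, and was called in the set of replicates 1 and 2. Obp19b, also outside the rule and chosen after its values were seen, had 40.0, 29.3, 15.4 and 10.4 CPM in Top3b26 and 12.5, 16.7, 15.7 and 12.1 CPM in w1118, with log2 fold changes of 1.13 and -0.24. Only the Top3b26 libraries of replicates 1 and 2 stood out, and the rest overlapped. Over the 24 genes the median difference between the sets was -0.54 and 22 were negative. Over all tested genes the median was -0.06 and 43.8% were positive.

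Other abundant members were not called over the 8 libraries. Obp56d (2R, 19702924 to 19703915, minus strand) had 546, 498, 422 and 447 CPM in Top3b26 and 541, 500, 525 and 413 CPM in w1118, with a log2 fold change of -0.18 ± 0.11 (SE, edgeR adjusted p = 0.57). Obp56g had 276, 206, 98.4 and 92.6 CPM in Top3b26 and 148, 174, 104 and 85.8 CPM in w1118, with 0.25 (SE 0.33). In both genotypes its replicates 1 and 2 lay above its replicates 3 and 4. Obp57c had 208, 138, 93.4 and 96.3 CPM in Top3b26 and 114, 95.4, 103 and 89.7 CPM in w1118, with 0.26 (SE 0.21). In replicates 1 and 2 alone it was 0.57 (edgeR adjusted p = 0.024), under the fold minimum, and it was called there without Top3b26 replicate 2 (0.83) or w1118 replicate 1 (0.72). Obp56h had 88.0, 62.7, 41.7 and 32.5 CPM in Top3b26 and 60.5, 57.8, 56.4 and 41.4 CPM in w1118, with -0.09 (SE 0.25), and changed sign with the scaling. In replicates 3 and 4 alone Obp56h was called lower without Top3b26 replicate 3 (-0.68) or w1118 replicate 4 (-0.69).

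Members also differed between the sets of replicates when genotype was held in the fit. In a fit with genotype and set, 5 of 24 genes were higher in replicates 3 and 4 than in replicates 1 and 2, beside 12.3% of all genes, and 1 was lower, beside 6.32%. The higher ones were Obp56a, Obp56e, Obp83cd, Obp83g and Obp99c and the lower one was Obp56g, at -0.88 (edgeR adjusted p = 0.00064). This fit assumes the same shift in each genotype, which Obp56e did not show (interaction 0.94, edgeR adjusted p = 0.00041). Its shift was larger in Top3b26 than in w1118. Obp83g had 13 and 29 reads in Top3b26 replicates 3 and 4 and 26 and 22 in w1118 replicates 3 and 4. In replicates 1 and 2 it had 2 and 2 reads in Top3b26 and 0 and 2 in w1118. Its difference between the sets was 3.76 on the log2 scale (SE 0.50, edgeR adjusted p = 0.00021).

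Marker lists of other cell types also differed between libraries. The 8 photoreceptor genes summed to 2278 and 2124 CPM in Top3b26 replicates 1 and 2 and to 19715 and 23894 CPM in replicates 3 and 4, against 25186 to 35982 CPM in w1118. Rh6, one of these genes, did not follow the sum, with 318, 278, 458 and 480 CPM in Top3b26 and 228, 248, 197 and 209 CPM in w1118. The 3 yolk protein genes of the female fat body summed to 7488 to 14595 CPM in Top3b26, to 11536 and 8508 CPM in w1118 replicates 1 and 2, and to 31364 and 43137 CPM in w1118 replicates 3 and 4. The 3 genes of male dosage compensation, led by roX1, summed to 4845 and 3775 CPM in Top3b26 replicates 1 and 2 and to 1890 and 1562 CPM in replicates 3 and 4. In w1118 they summed to 3287 and 3188 CPM in replicates 1 and 2 and to 1391 and 1101 CPM in replicates 3 and 4. All 4 libraries of replicates 1 and 2 thus lay above all 4 of replicates 3 and 4 in this sum, and both w1118 libraries of replicates 3 and 4 lay above all others in the yolk protein sum.

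**Figure D5:**
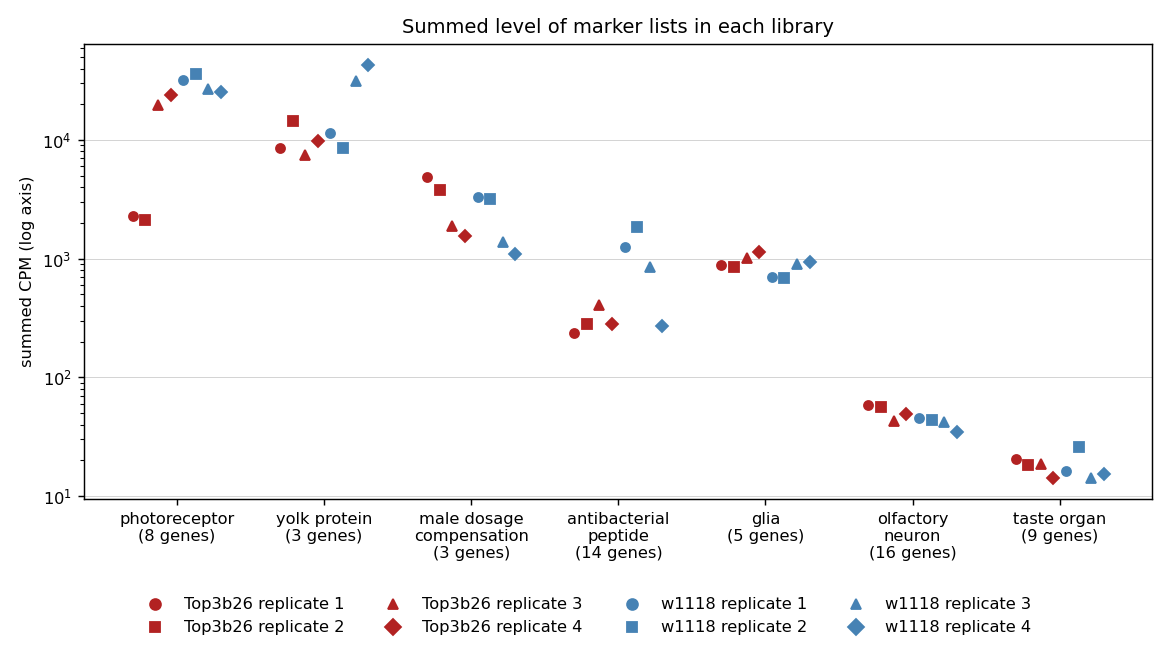
Summed level of 7 marker lists in each library on a log axis, Top3b26 left of w1118. The photoreceptor sum is 2278 and 2124 CPM in Top3b26 replicates 1 and 2 and 19715 or more in the other libraries, and the yolk protein sum is 31364 and 43137 CPM in w1118 replicates 3 and 4 and 14595 or less in the others.

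Antibacterial peptide genes, 14 in all, summed to 235 to 409 CPM in Top3b26 and to 1255, 1830, 849 and 273 CPM in w1118 replicates 1 to 4. In replicates 1 and 2, 13 of 13 tested were called lower in Top3b26, beside 7.03% of all genes. Lsp2, a storage protein gene of the fat body, stood at 282, 525, 163 and 378 CPM in Top3b26 and 136, 74.2, 3196 and 3934 CPM in w1118. The part of these transcripts in the values of Obp99a, Obp99b, Obp56e and the other members was not tested. Without Top3b26 replicates 1 and 2, or without w1118 replicates 3 and 4, again 0 odorant-binding protein genes were called by edgeR.

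The other genes of odour detection were compared in the same fits. Of 7 soluble antennal proteins besides the family, 3 were tested and 0 were called pooled. With the block antdh was called higher at 1.06 (edgeR adjusted p = 0.035), beside 0.914% of all genes. Of the pheromone membrane proteins Snmp1 and Snmp2, both were tested and 0 were called pooled or with the block. Of 7 receptor subunits shared by many receptors, 3 were tested (Orco, Ir25a and Ir76b), all 3 had positive log2 fold changes (median 0.65), and 0 were called pooled or with the block. Of 20 genes of the CheA and CheB families, 4 were tested and CheA87a was called lower with the block, at -1.66 (edgeR adjusted p = 0.011), beside 2.91% of all genes. Within replicates 1 and 2, antdh, Est-6, Snmp2, Ir25a and CheA75a were called higher, beside 3.5% of all genes, and CheA87a lower, beside 7.03%. Within replicates 3 and 4, antdh was called higher, beside 1.52%, and CheA87a lower, beside 5.95%.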

How the data were processed

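Reads of 8 libraries of adult head RNA were mapped by the authors to dm6 with TopHat (TopHat2 2.1.1 and SAMtools 1.8 in the submitters' processing notes). What the authors deposited is the raw count of reads for each gene symbol, in whole numbers and unnormalized. The header of w1118 replicate 2 says CPM, but its values are whole numbers and were used as counts. The counting tool and its strand setting are not given in the sources used here. Reads on no gene were 43.1% to 48.9% and reads with several alignments 16.6% to 30.4% of the reads listed, and neither entered gene totals. Of 16727 symbols, 12512 matched the annotation by symbol, 3996 by an older symbol and 219 not at all.

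In R 4.3.3, the quasi-likelihood test of edgeR 4.0.16 was run on the counts of all genes that passed filterByExpr, scaled by TMM, with Benjamini-Hochberg adjustment over them. A call needs a 1.5-fold change and an adjusted p no higher than 0.05. DESeq2 1.42.0 and limma 3.58.1 were alternatives. The SE of a fold change was taken as its absolute log2 value divided by the root of F. Permutation tests used Python 3.11.15 and a pseudocount of 1 CPM.

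Genes named singly were the 10 highest per kilobase of exon, those called pooled, with the block, with the term for the set or in both sets, and those whose genotypes' libraries did not overlap. Obp19b, Obp57a, Obp83cd, Obp83g and Obp99b were followed after their values had been seen. The members and lists were chosen with earlier results of these data known, and the role groups, the Plus-C list and the 50 kb clusters after the values had been seen. Replicate numbers come from the labels. The study's methods name fewer sets of separately prepared RNA than the labels number replicates, so which libraries are independent is not given. Deviations from the genotype means correlated between libraries of the same number (r = 0.437 to 0.642 over 4 pairs). They correlated about as much between different numbers of the same set (0.515 to 0.617). Libraries of the same number were thus no closer than others of their set. The block by number was kept as an alternative beside the term for the set.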

Additional observations from a re-analysis of the deposited data

Results flagged for a closer look

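The genotype difference of 7 genes differed between the sets of replicates in edgeR's interaction test. As the log2 fold change in replicates 3 and 4 minus that in replicates 1 and 2, it was 3.70 for Obp99b (adjusted p = 6.1e-05 from edgeR), -2.39 for Obp99a (adjusted p = 2.1e-05), -1.40 for Obp19b (adjusted p = 0.012) and -1.33 for Obp44a (adjusted p = 0.0021). It was 0.94 for Obp56e (adjusted p = 0.00041), -0.86 for Obp49a (adjusted p = 0.0096) and -0.65 for Obp19d (adjusted p = 0.015).

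One library stood away from the rest of its group. Obp84a was at 2.42 CPM in w1118 replicate 2, the library with the fewest counts, and at 2.06 to 2.11 CPM in the other w1118 libraries. These values rest on 8 reads in that library and on 13, 13 and 16 reads in w1118 replicates 1, 3 and 4. Chance alone marks about 1 in 20 groups of this size, and 48 groups were examined.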

How the results depend on the processing

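The count of odorant-binding protein genes called between the genotypes was 0 and stayed 0 under DESeq2, limma voom, other scalings, filters and thresholds, the exon length offset alone, and without any 1 library or replicate number. It was 2 with the replicate block, 4 with the term for the set, 9 and 4 in replicates 1 and 2 and in replicates 3 and 4 alone, and 1 with the exon length offset and the block. Within replicates 1 and 2, 9 genes were called by edgeR, 5 by DESeq2 and 3 to 9 without 1 library (3 without Top3b26 replicate 1). There the exon length offset turned 6 higher and 3 lower into 9 and 2. Within replicates 3 and 4, 4 were called by edgeR, 2 by DESeq2, 2 with the exon length offset and 3 to 5 without 1 library. There 0 higher and 4 lower became 1 and 1 with the offset and 1 and 3 without w1118 replicate 3. A lone library was assumed to vary like the other genotype.

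Of 457 alternative log2 fold changes of single genes, 408 kept their direction and side of the threshold, 19 passed it and 30 changed sign. In replicates 3 and 4 alone the signs changed for Obp19d (-0.11), Obp56g (-0.10), Obp44a (-0.70), Obp57c (-0.13), Obp19b (-0.24) and Obp99b (0.63). In replicates 1 and 2 alone they changed for Obp56h (0.19) and Obp99a (0.24). Without Top3b26 replicates 1 and 2, Obp19d gave -0.23, Obp56g -0.43, Obp44a -0.57, Obp57c -0.11 and Obp19b -0.18, and without w1118 replicates 3 and 4 Obp56g gave -0.02. Obp44a was -0.06 in limma voom, -0.04 with the replicate block and -0.05 with the term for the set. Obp56h was 0.06 by library total, 0.08 with the exon length offset and 0.03 with offset and block. Without 1 library or number, Obp56g ranged from -0.05 to 0.43, Obp44a from -0.28 to 0.39 and Obp56h from -0.34 to 0.08. The cause was not tested. Chosen after seeing the data were the settings without pairs of libraries, the exon length offset and the left-out libraries within a set, and all alternatives for Obp19b, Obp57a and Obp99b.

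The replicate block changed no call of a named gene other than those of Obp56a and Obp99c. Genes with few reads are limited by depth: at 3 counts the floor is 0.395 to 0.909 CPM.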
